A study of Mus musculus with 9 samples.

Results

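Megakaryocyte-primed progenitors that carried transcripts of both Pf4 and Itga2b were examined among the stem and progenitor cells of mouse bone marrow. A cell was a member if its barcode held at least 1 UMI (unique molecular identifier, a tag that marks 1 captured mRNA) of Pf4, at least 1 of Itga2b and none of Procr or Flt3. The members were thus chosen by the measured UMI counts of these 4 genes. Of 15975 cells that passed the filters, 408 cells (2.55%) were members, between 27 and 62 in each of 9 libraries. The cells were Lin- cKit+ Sca1+ (LSK) cells of C57BL/6 mice, the marrow fraction that holds stem cells and multipotent progenitors, frozen alive and thawed before 10x Genomics 3' v3 sequencing. There were 3 groups of 3 libraries. Young mice were 10 to 12 weeks old, aged mice were over 80 weeks old, and the remaining group were aged mice given CASIN, an inhibitor of the small GTPase Cdc42. CASIN was injected 4 times, every 24 h, at 25 mg/kg in cyclodextrin, the young and aged controls received cyclodextrin alone, and marrow was taken on day 5. Nothing in the labels says how many mice gave each library, so that p-values measure only the spread between these libraries.

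Megakaryocytes are the large polyploid cells that release platelets. Part of the stem cell pool is biased towards them and carries platelet transcripts at a low level, and this bias is known to grow with age. Pf4 (platelet factor 4, also CXCL4) is a chemokine stored in platelet alpha granules, and Itga2b (CD41) is the alpha subunit of the platelet fibrinogen receptor and appears early in the lineage. Procr (EPCR) marks the most primitive stem cells and Flt3 marks multipotent progenitors biased to lymphoid fates, and cells with either were left out by the rule.

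Promoters are shown for genes the results turn on, from RefSeq on build GRCm38.p6, each 250 bases before to 50 bases after the start of the gene, written 5′ to 3′ on the strand of the gene. The protein-coding gene Pf4 (ENSMUSG00000029373) lay at chr5:90772435-90773383, Itga2b (ENSMUSG00000034664) at chr11:102453297-102470122 and Gp9 (ENSMUSG00000030054), which encodes a subunit of the von Willebrand factor receptor complex, at chr6:87778072-87779768 (GENCODE annotation on GRCm38). Their promoter windows are chr5:90772185-90772484 (plus strand), chr11:102469834-102470133 (minus strand) and chr6:87777820-87778119 (plus strand). Windows were set by the RefSeq start. For Itga2b this start lies inside the GENCODE gene, so that most of its window falls within the gene coordinates given. Capitals mark the letters GATA and GGAA on either strand (TATC and TTCC when read on the printed strand), the core letters of the motifs of GATA and ETS factors, both known to act in megakaryocytes, and neighbouring or overlapping matches share 1 run of capitals.
Pf4: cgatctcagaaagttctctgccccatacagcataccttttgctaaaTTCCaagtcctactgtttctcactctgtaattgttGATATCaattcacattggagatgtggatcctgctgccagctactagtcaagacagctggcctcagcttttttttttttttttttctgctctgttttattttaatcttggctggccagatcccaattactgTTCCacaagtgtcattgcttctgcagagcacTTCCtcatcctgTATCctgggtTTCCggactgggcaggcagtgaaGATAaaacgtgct
Itga2b: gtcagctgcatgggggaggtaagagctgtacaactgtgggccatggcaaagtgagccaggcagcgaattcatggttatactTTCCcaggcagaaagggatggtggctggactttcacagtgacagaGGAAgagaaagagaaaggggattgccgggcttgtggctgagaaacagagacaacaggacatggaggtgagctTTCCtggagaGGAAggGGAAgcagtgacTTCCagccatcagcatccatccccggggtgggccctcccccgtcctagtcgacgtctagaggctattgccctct
Gp9: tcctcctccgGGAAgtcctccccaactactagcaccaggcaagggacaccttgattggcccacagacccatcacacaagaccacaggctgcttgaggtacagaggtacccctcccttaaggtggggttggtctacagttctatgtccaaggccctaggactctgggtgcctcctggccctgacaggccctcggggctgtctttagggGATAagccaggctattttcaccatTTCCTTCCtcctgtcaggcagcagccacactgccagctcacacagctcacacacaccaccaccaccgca
The Pf4 window held 4 matches to GATA and 4 to GGAA, the Itga2b window 0 and 6, and the Gp9 window 1 and 3. Among 32851 promoters of this length, 57.9% held GATA and 96.0% held GGAA, so that a match is common and describes letters only. The genes Mt1 and Mt2 encode metallothioneins, small proteins that bind zinc and copper. They lie next to each other on chromosome 8, and their windows (chr8:94178839-94179138 and chr8:94172368-94172667, both plus strand) are printed because both genes rose with age, as described further on. Capitals mark TGCGCNC and TGCACNC on either strand, the core letters of metal response elements.
Mt1: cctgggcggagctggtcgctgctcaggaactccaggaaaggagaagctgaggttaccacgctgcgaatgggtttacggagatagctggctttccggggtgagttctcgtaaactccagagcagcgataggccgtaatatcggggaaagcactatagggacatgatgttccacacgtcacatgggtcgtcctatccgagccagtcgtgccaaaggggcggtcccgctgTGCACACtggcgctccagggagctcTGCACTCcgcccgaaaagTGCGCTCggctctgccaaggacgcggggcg
Mt2: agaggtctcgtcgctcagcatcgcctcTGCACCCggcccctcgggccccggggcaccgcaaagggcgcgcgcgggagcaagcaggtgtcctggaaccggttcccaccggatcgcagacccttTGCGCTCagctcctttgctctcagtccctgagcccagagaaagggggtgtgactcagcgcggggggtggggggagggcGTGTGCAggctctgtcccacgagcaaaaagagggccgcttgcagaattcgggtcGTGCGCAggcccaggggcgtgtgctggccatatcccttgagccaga
The Mt1 window held 1 match to TGCGCNC and 2 to TGCACNC, and the Mt2 window 2 of each. Of all promoters 15.4% held the first, 12.6% the second, 25.7% either and 1.97% at least 3 of either.

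The libraries fell into sequencing batches named in the labels. Batch 1 held young 1, young 2, aged 1, CASIN 1 and CASIN 2, and batch 2 held young 3, aged 2, aged 3 and CASIN 3. Sex-linked transcripts followed the batch. In batch 1, Xist was found in 0.0452% to 0.191% of cells and Y-linked genes in 80.2% to 87.8%, whereas in batch 2 Xist was found in 99.3% to 99.96% of cells and Y-linked genes in 0% to 0.165%. The sequencing batch and the sex of the mice therefore cannot be told apart, and values within each batch are given where they bear on a result. Mitochondrial transcripts also moved with the batch, with a median of 2.74% to 3.54% of UMIs in the members of batch 1 and of 5.69% to 7.76% in those of batch 2. Libraries held 1118 to 2441 cells after filtering, and the members of a library held 376647 to 885018 UMIs in total. There were 62 barcodes found in more than 1 library, of which 1 was a member.

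The share of members overlapped between the groups. It was 1.53%, 1.22% and 4.87% of cells in young 1, 2 and 3, with 95% exact binomial intervals of 1.05 to 2.14, 0.806 to 1.77 and 3.73 to 6.23, which cover counting error only. In aged 1, 2 and 3 it was 2.87%, 3.31% and 2.54%, and in CASIN 1, 2 and 3 it was 3.31%, 3.44% and 1.80%. The young libraries were thus both the lowest and the highest, and the 3 groups overlapped. This order rests on the mitochondrial limit of 10%. At a limit of 5% young 3 stood at 2.32%, aged 2 was lowest (1.09%), CASIN 2 was highest (3.15%), and the SD was 0.574 in young, 1.02 in aged and 1.02 in CASIN libraries.

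**Figure D1:**
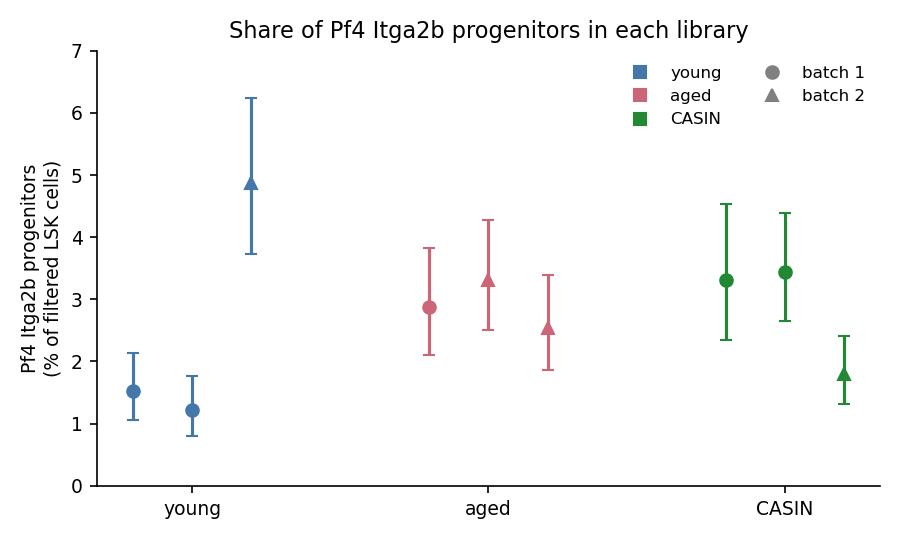
The vertical axis gives members as a percentage of all filtered cells, for each of the 9 libraries by group, with 95% exact binomial intervals and the batch marked. The young libraries span 1.22% to 4.87%, and the order of the groups differs between the batches.

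The mean share was 2.54% ± 2.02 (SD, n = 3) in young, 2.91% ± 0.388 in aged and 2.85% ± 0.910 in CASIN libraries. Aged minus young was 0.367 percentage points (exact permutation test, two-sided, p = 0.9), CASIN minus aged was −0.0562 (p = 0.9) and CASIN minus young was 0.311 (p = 0.8). With 3 libraries against 3 the smallest p is 0.1, so this test could not have passed 0.05. Within batch 1 aged exceeded young by 1.49 percentage points, whereas within batch 2 aged was below young by 1.94 (difference −1.94). The differences for CASIN against aged were 0.506 in batch 1 and −1.12 in batch 2, and for CASIN against young 2.00 and −3.07. At the 5% limit CASIN against aged differed by 0.239 and 0.226.

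Free RNA in droplets gives UMIs in cells that do not express a gene, so that the share was also read in other classes. In a class that should lack both genes, cells with Flt3 and at least 2 UMIs of Dntt (terminal transferase, a lymphoid enzyme), both were found in 0% to 3.39% of cells, with a median of 0.680% over the libraries. Among cells without Procr and Flt3, a class that includes the members, both were found in 6.60% to 17.1% (median 11.03%). The median depth was 15942 UMIs in the former class and 10708 in the latter. The part of free RNA in these shares was not tested. The share was 2.91% to 12.2% among cells with Procr (median 6.90%) and 1.60% to 6.71% among all cells with Flt3 (median 2.70%), and both ranges overlapped that of cells without Procr and Flt3. Thinned to 4000 UMIs a cell, members made up 0.393%, 0.496% and 2.22% of cells in young, 1.60%, 1.77% and 1.45% in aged, and 1.57%, 1.84% and 0.855% in CASIN libraries.

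The members differed widely in how much of the rule genes they held. Just 1 UMI of Pf4 was found in 188 members, 2 to 4 in 127 and 5 or more in 93, and these 93 cells held 82.6% of all Pf4 UMIs of the members. Exactly 1 UMI of each gene was found in 104 members. The highest count was 183 UMIs for Pf4 and 16 for Itga2b. Summed over the members, Pf4 stood at 106, 154 and 627 CPM (counts scaled to 1e+06 UMIs of these cells) in young 1 to 3, at 734, 898 and 568 CPM in aged 1 to 3 and at 246, 510 and 637 CPM in CASIN 1 to 3. Itga2b stood at 92.9, 106 and 292 CPM in young, at 202, 318 and 275 CPM in aged and at 189, 219 and 232 CPM in CASIN libraries. Both were lowest in young 1 and young 2. These are values of the rule genes themselves and carry no test.

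At the edge of the rule genes differed in how they changed. Cells with 1 UMI of each gene held 24.0 CPM of Gp9, cells with 1 UMI of Pf4 and none of Itga2b held 21.3, and cells with 1 of Itga2b and none of Pf4 held 20.7. The remaining members held 52.1 CPM, and cells with none of the 4 rule genes (double-negative cells, 2192 in number) held 12.1 CPM. Vwf, the von Willebrand factor, stood at 8.01 CPM in cells with 1 UMI of each gene, below the 20.03 and 26.8 CPM of cells with 1 UMI of Pf4 alone or Itga2b alone and the 19.1 CPM of double-negative cells. Ighm, the immunoglobulin heavy chain, stood at 27.7 CPM inside this edge and at 2430 and 726 CPM outside it, pooled over the libraries. As a median over the libraries Ighm stood at 20.7 CPM in all members. In all cells with Pf4 and no Itga2b this median was 12.5 CPM, and in those with Itga2b and no Pf4 it was 30.7 CPM. The pooled contrast was thus not seen in these medians.

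The other genes of the lineage were compared between members and double-negative cells of the same library, as a description without a test, because the rule set the 2 classes apart. Members were deeper (a median of 12876.5 UMIs against 9421.5), and all levels below are in CPM of 3' tag counts. Gp9 stood at 33.2, 45.1 and 37.3 CPM in the members of young, at 50.2, 55.0 and 43.0 CPM in aged and at 49.5, 59.5 and 33.6 CPM in CASIN libraries. Every library was above the median of 11.9 CPM in double-negative cells, and the median log2 ratio over the 9 libraries was 1.74. Further receptors of platelets were also higher in all 9 libraries. These were Treml1, a receptor of platelet granules (log2 ratio 2.73), Gp5, another subunit of the von Willebrand factor receptor (1.87), F2r, a thrombin receptor (1.09), the tetraspanin Cd9 (0.63) and the junction protein Esam (0.66).

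Of the 13 megakaryocyte receptor and adhesion genes that reached 10 CPM in either class, 6 were higher in all 9 libraries and 0 were lower in all 9, with a median log2 ratio of 0.63. Over all 8322 genes at that level, 727 (8.74%) were higher and 302 (3.63%) lower in all 9, with a median of 0.11. Platelet granule and cytoskeleton genes stood between, with 7 of 26 higher and 1 lower in all 9 libraries and a median of 0.46. They included Rab27b, which acts in granule release (1.32), and Nrgn, a calmodulin-binding protein (0.84). Late platelet genes were near 0. Ppbp, another alpha granule chemokine, stood at 0 to 5.60 CPM, and P2ry12, Tubb1, F13a1 and Myl9 had no UMI in any member.

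**Figure D2:**
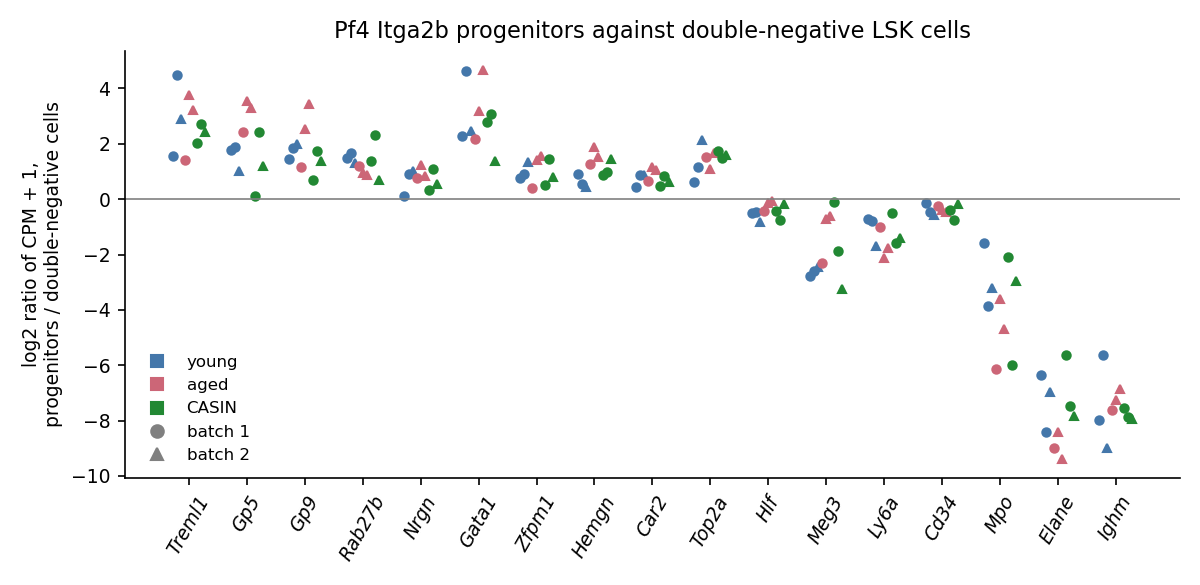
Each point is the log2 ratio of the CPM in members to that in double-negative cells of 1 library, for genes of the lineage lists (pseudocount of 1 CPM), with colours for the group, shapes for the batch and the line at 0 for no difference. Gp9, Treml1, Gp5 and Gata1 lie above 0 in all 9 libraries, and most granulocyte and lymphoid genes lie below it.

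Among transcription factors, Gata1, the factor needed for megakaryocyte and erythroid maturation, was low but higher in all 9 libraries, at 3.20 to 24.3 CPM in members against a median of 0.4 CPM in double-negative cells (log2 ratio 2.80). Its partner Zfpm1 (FOG1) stood at 94.4 to 149 CPM (0.90). Of 22 factors 4 were higher and 1 lower in all 9 libraries. Gata2 was higher in 8 of 9. Erythroid genes showed 3 of 9 higher in all libraries (median 0.38), Car2, Hemgn and Blvrb, and Klf1, the defining erythroid factor, stood at 0 to 7.97 CPM.

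Genes at least 2-fold higher than in double-negative cells in all 9 libraries were few, 5 of 18270 (0.0274%), and 34 (0.186%) were at least 2-fold lower in all 9. The 5 were Gata1, Treml1, Kif4, Fancd2 and Shcbp1, the last 3 of which act in mitosis, DNA repair and cell division. Among the 34 were the immunoglobulin genes Igkc, Ighm and Iglc2, the B lineage genes Cd79a and Ly6d, and the myeloid genes Elane, Ctsg and Ly6c2.

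Granulocyte, monocyte and lymphoid genes were mostly lower. Of 14 granulocyte and monocyte genes 10 were lower in all 9 libraries and 1 was higher (median −2.97), and of 11 lymphoid genes 9 were lower and 0 higher (median −3.26). Elane, neutrophil elastase, stood at 0 to 2.75 CPM in members against a median of 339 CPM in double-negative cells, and Dntt at 1.73 to 7.97 CPM against 42.1. The double-negative cells also held immunoglobulin transcripts (a median of 33534 CPM of Igkc), so that they are no pure progenitor class. Cells with Procr and no Flt3 (4976 in number) were therefore set beside the members too. Against these Gp9 (1.43), Treml1 (2.17), Gp5 (1.57), Gata1 (2.94) and Car2 (0.50) were higher in all 9 libraries, whereas Selp (−0.43) and Vwf (−0.35) had medians below 0. Whole lists lay closer together. Receptor genes summed to a median of 945 CPM in members and 843 CPM in cells with Procr, and granule genes to 5561 and 4908.5 CPM. Lineage factors summed to less in members (2454 CPM) than in cells with Procr (2864 CPM). Of 23 stem cell genes at 10 CPM 6 were lower and 1 higher in all 9 libraries than in double-negative cells (median −0.35), beside the 3.63% and 8.74% of all genes. Hlf, a factor of self-renewal, was lower in all 9 libraries against either class (−0.44 and −0.96), as were Ly6a (−1.42 and −1.16) and Meg3 (−2.30 and −2.62). Ly6a encodes Sca1, 1 of the markers of the sort, and was still found in the members of every library at 33.9 to 102 CPM.

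Members that held more Pf4 differed from those with little in the same direction. Gp9 stood at 31.1 CPM in members with 1 UMI of Pf4, at 44.2 CPM with 2 to 4 and at 74.9 CPM with 5 or more. Vwf went from 20.2 to 31.7 and 103 CPM, and Gp5 from 9.71 to 17.5 and 29.5 CPM. In the other direction Hlf went from 169 to 140 and 69.6 CPM and Cd34, a progenitor surface marker, from 200 to 187 and 86.2 CPM. The depth of the 3 classes was alike, with medians of 12690, 13046 and 13345 UMIs.

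**Figure D3:**
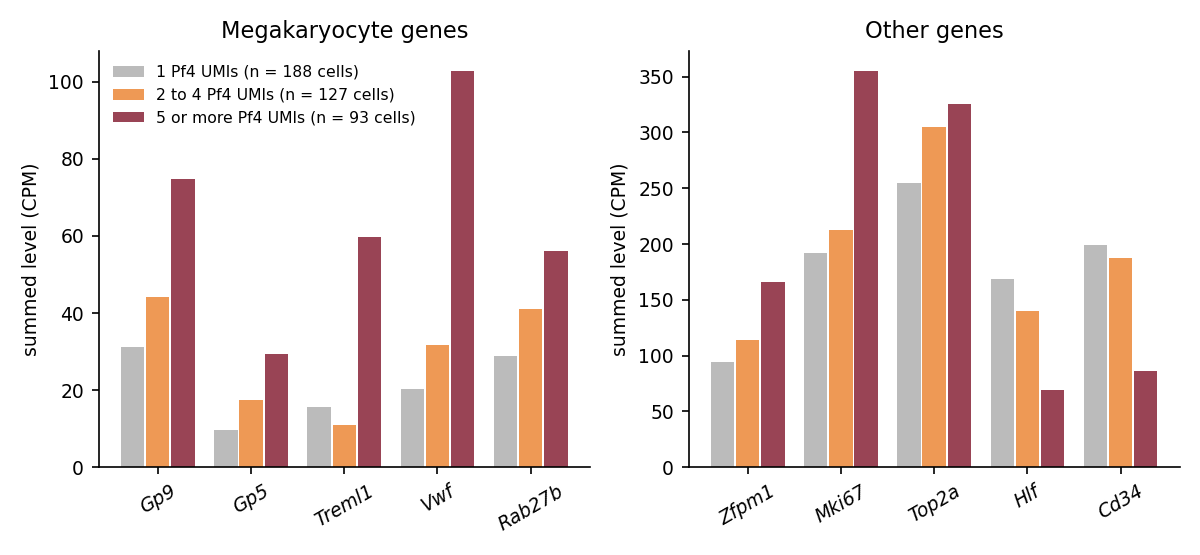
Bars give CPM summed over the 188 members with 1 UMI of Pf4, the 127 with 2 to 4 and the 93 with 5 or more, for genes of the lineage (left) and Zfpm1, proliferation and stem cell genes (right). Gp9, Gp5 and Vwf climb with Pf4 whereas Hlf and Cd34 go down.

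The direction between the outer classes was the same within each batch for these genes. Gp9 went from 34.0 to 81.1 CPM in batch 1 and from 27.7 to 71.2 CPM in batch 2, and Hlf from 170 to 89.2 and from 168 to 57.9 CPM. Of 13 receptor genes 12 were higher in members with 5 or more UMIs than in those with 1 (median log2 ratio 0.79), of 25 granule genes 19 (0.47), of 22 factors 11 (0.01) and of 23 stem cell genes 7 (−0.39), beside 4630 of 8385 genes in all (0.04). Of 52 genes of the G2/M phase, 49 were higher (0.57), and Mki67, the proliferation antigen, went from 192 to 212 and 355 CPM. The classes were unevenly spread over the batches, with 32 members of 5 or more UMIs in batch 1 and 61 in batch 2. No test was run, since Pf4 is a gene of the rule.

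Members carried more cell cycle transcripts than double-negative cells. The 50 G2/M genes that reached 10 CPM had a median log2 ratio of 1.18, with 35 higher and 0 lower in all 9 libraries, and 22 of 42 S phase genes were higher in all 9 (median 0.88). Summed over the list, G2/M transcripts stood at 3302 to 6893 CPM in members (median 6267), at a median of 2800 CPM in double-negative cells, 2416 CPM in cells with Procr and 4903 CPM in cells with Flt3.

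A UMI of any of Mki67, Top2a, Cdk1 and Ccnb1, which are made in dividing cells, was found in 48.5%, 55.6% and 88.1% of members in young, in 42.2%, 80.4% and 84.4% in aged and in 51.4%, 51.6% and 77.3% in CASIN libraries. Thinned to 4000 UMIs a cell the shares were 39.4%, 33.3% and 74.6%, then 24.4%, 64.3% and 73.3%, then 35.1%, 37.7% and 63.6%. The 4 libraries of batch 2 were above all 5 of batch 1 both before and after thinning. The wider lists had no such step, since the summed G2/M levels of members were 3302 to 6893 CPM in batch 1 and 4901 to 6520 CPM in batch 2, and the S phase levels 2727 to 3702 and 2603 to 3145 CPM. In double-negative cells the thinned shares were 8.67% to 29.1%, and the batches overlapped. The shares were 5.80% to 28.9% in cells with Procr and 32.2% to 47.7% in cells with Flt3. The latter range overlapped that of the members of batch 1 (24.4% to 39.4%).

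**Figure D4:**
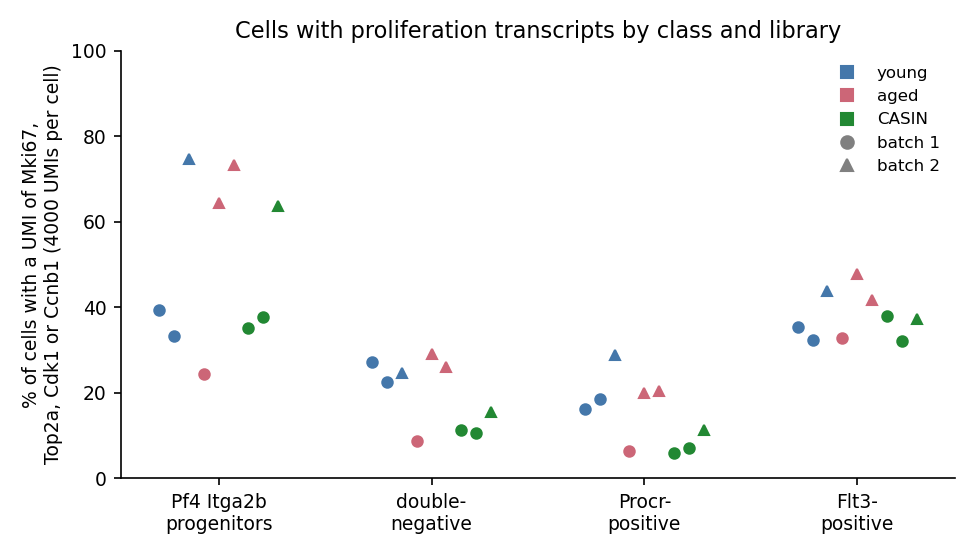
The vertical axis gives the percentage of cells with a UMI of Mki67, Top2a, Cdk1 or Ccnb1, thinned to 4000 UMIs, for each class of cells and library, with the batch marked. Members of batch 2 sit between 63.6% and 74.6%, all above the members of batch 1.

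The differences between groups in these levels did not pass a test. The summed S phase level, on the log2 scale, differed by −0.0576 for aged minus young (exact permutation test, two-sided, p = 0.8), by −0.0696 for CASIN minus aged (p = 0.7) and by −0.127 for CASIN minus young (p = 0.5). By the same exact permutation test the G2/M level differed by −0.245 (p = 0.8), 0.0943 (p = 0.8) and −0.151 (p = 0.4). The test again could not have gone below 0.1, and it leaves the batch out. Within batches 1 and 2 the G2/M level differed by −0.955 and 0.204 for aged minus young, by 0.829 and −0.403 for CASIN minus aged and by −0.126 and −0.199 for CASIN minus young. For the S phase level these were −0.0550 and 0.0074, −0.0326 and −0.213, and −0.0876 and −0.206.

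The first comparison of conditions asks how members of aged mice differed from those of young mice. The metallothioneins Mt1 and Mt2 rose, as did the adhesion receptor gene Selp and 9 of 27 immediate early genes. UMIs were summed over the members of each library and tested with edgeR's quasi-likelihood test, with the batch in the model and Benjamini-Hochberg adjustment over 7810 genes. Of these, 36 were higher (0.461%) and 11 lower (0.141%) in aged than in young, 47 in all (0.602%), and 42 of the 47 had the same direction in both batches. The median log2 change over all genes tested was 0.00. The count depended on the model, with 0 genes when the batch was left out of it, 19 by DESeq2, 18 without aged 2 and 9 when each cell was thinned to 4000 UMIs and the rule applied again, which left 9 to 32 members a library.

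Mt2 stood at 0, 0 and 2.26 CPM in young 1 to 3 and at 96.9, 19.3 and 9.34 CPM in aged 1 to 3. Mt1 stood at 24.9, 31.9 and 46.3 CPM in young and at 443, 129 and 56.0 CPM in aged libraries. For both genes every aged library was above every young one, with the aged library of batch 1 far above the others. Mt2 rose by 5.48 ± 0.66 (log2 fold change ± SE, edgeR adjusted p = 0.000325) and Mt1 by 2.68 ± 0.42 (edgeR adjusted p = 0.00251), and both calls held whichever library was left out, with log2 changes of 4.45 (without young 1) to 8.92 (without young 3) for Mt2 and of 2.12 to 4.06 for Mt1 in the same 2 fits. The call of Mt1 was lost with DESeq2. The young members held 2 UMIs of Mt2 in all and the aged 75, a ratio per UMI of 38.0 with an exact 95% interval of 10.2 to 319, which covers counting error only. A span of 2 SE on either side of the Mt2 change is narrower than this interval. The SE is derived from the F statistic of the test and is only approximate at such low counts. Within the batches the Mt1 difference was 3.93 in batch 1 and 0.86 in batch 2.

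Selp encodes P-selectin, an adhesion receptor that platelets and endothelial cells display when activated. It stood at 13.3, 0 and 30.5 CPM in young, at 81.3, 64.6 and 84.1 CPM in aged and at 71.9, 82.8 and 68.8 CPM in CASIN libraries. The groups of aged mice did not overlap with the young, and Selp rose by 2.03 ± 0.37 in aged members (edgeR adjusted p = 0.00864), a call lost with 2 UMIs of each rule gene required. It was the only megakaryocyte receptor gene of 12 tested that passed. Of those 12, 11 had a positive log2 change, with a median of 0.40.

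Among 25 granule and cytoskeleton genes 2 passed, both higher, with a median of 0.32 over the list. They were Cavin2, a coat protein of caveolae that is abundant in platelets, and Clu, the secreted chaperone clusterin. Clu stood at 0, 2.66 and 11.3 CPM in young and at 79.6, 61.9 and 11.2 CPM in aged libraries, so that aged 3 lay at the level of young 3, and rose by 3.27 ± 0.61 (edgeR adjusted p = 0.00977). The call was lost without young 1 (log2 change 2.53), young 2 (2.99) or aged 2 (2.88). Cavin2 rose by 3.04 ± 0.66 (edgeR adjusted p = 0.0313), a call lost without young 1 (2.17), young 2 (3.07), aged 1 (3.15), aged 2 (2.81) or CASIN 3 (2.91).

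Vwf stood at 0, 10.6 and 31.6 CPM in young and at 39.8, 82.5 and 13.1 CPM in aged libraries, and did not pass (1.47 ± 0.60, edgeR adjusted p = 0.482). Its log2 change was 0.68 without aged 2 and 3.66 without young 3, and it passed with no filter on low counts (1.44, edgeR adjusted p = 0.00177). Gp9 (0.46 ± 0.26, edgeR adjusted p = 0.68) did not pass either. Of 22 transcription factors of the lineage 0 passed, with 5 at an unadjusted p under 0.05 and a median of 0.13.

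Genes known to be higher in aged stem cells rose in part. Of 27 tested, 12 passed and rose, 0 fell and all 27 had a positive log2 change, with a median of 2.64. This list was drawn up with earlier results of these data known, so that its count is not independent evidence of its direction. Clca3a1, a regulator of chloride conductance, stood at 1.66, 10.6 and 12.4 CPM in young and at 106, 41.3 and 37.4 CPM in aged libraries, without overlap, and rose by 3.01 ± 0.43 (edgeR adjusted p = 0.00123). Aldh1a1, which makes retinoic acid, stood at 16.6, 18.6 and 24.9 CPM in young and at 96.9, 67.4 and 67.2 CPM in aged libraries (1.94 ± 0.31, edgeR adjusted p = 0.00332). Plscr2, of the phospholipid scramblases, rose by 2.11 ± 0.36 (edgeR adjusted p = 0.0049). These 3 calls held whichever library was left out, with log2 changes of 2.29 to 4.38 for Clca3a1, 1.69 to 2.43 for Aldh1a1 and 1.76 to 2.61 for Plscr2. With 2 UMIs of each rule gene required the calls of Aldh1a1 and Plscr2 were lost, and that of Plscr2 also with the replicate block and without members holding a proliferation UMI.

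Matn4, a matrix protein of the matrilin family, had no UMI in the members of any young library and stood at 24.2, 2.75 and 1.87 CPM in aged 1 to 3. Against the floor of 3 UMIs over the young group it was at least 5.74-fold higher in aged members. The call (edgeR adjusted p = 0.0265) was lost without young 1, young 2, aged 1 or aged 2, where the log2 change was 5.27 to 6.10. Gda, guanine deaminase (2.89 ± 0.51), and Sult1a1, a sulfotransferase (2.64 ± 0.56), rested on aged 1, which stood at 57.1 and 53.6 CPM. In aged 2 and aged 3 Gda stood at 4.13 and 5.60 CPM and Sult1a1 at 1.38 and 0 CPM. Without aged 1 the log2 change was 1.57 for Gda and 0.72 for Sult1a1, and both calls were lost. Gda also lost its call without young 1 (2.57), and Sult1a1 without young 1 (2.31), young 2 (2.98) or aged 2 (2.65).

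Immediate early genes, the first to be transcribed after a stimulus and also during cell handling, rose in part. Of 27 tested 9 passed and rose and 0 fell, with a median log2 change of 0.85. Nr4a1, an orphan nuclear receptor, stood at 91.3, 138 and 208 CPM in young, at 327, 970 and 527 CPM in aged and at 229, 267 and 261 CPM in CASIN libraries, and its relative Nr4a2 at 49.8, 55.8 and 93.8, at 232, 397 and 222, and at 171, 206 and 126 CPM. For both genes the aged group lay above the other groups without overlap. In aged against young members Nr4a1 rose by 1.82 ± 0.24 (edgeR adjusted p = 0.000493), Nr4a2 by 2.00 ± 0.26 (edgeR adjusted p = 0.000412) and Jund, an AP-1 subunit, by 0.76 ± 0.13 (edgeR adjusted p = 0.00376), and these calls held whichever library was left out. That of Jund was lost with 2 UMIs of each rule gene required. Junb (1.39), Btg2 (1.40), Ier2 (0.84), Egr1 (1.12), Egr3 (2.20) and Klf4 (1.75) rose as well. Of these 6, all but Junb lost their calls with the replicate block, and Ier2, Egr1 and Klf4 at a mitochondrial limit of 5%. Over all settings the change ranged from 0.15 to 2.06 for Egr1 and from 0.23 to 1.95 for Ier2. Each of these 6 lost its call without at least 1 library: Junb without young 3 (1.18), Btg2 without aged 2 (1.01), Egr1 without young 1 (1.01) or aged 2 (1.02), Ier2 without young 1 (0.78), young 3 (0.77), aged 2 (0.63) or CASIN 3 (0.83), Klf4 without young 2 (1.89), young 3 (1.03), aged 2 (1.16) or CASIN 3 (1.65), and Egr3 without young 1 (1.76), young 2 (2.23), aged 1 (1.64), aged 2 (2.07) or CASIN 3 (2.20).

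The summed level of this list was 6115, 7061 and 2932 CPM in young, 9078, 7191 and 5191 CPM in aged and 9369, 8484 and 3525 CPM in CASIN libraries. Within each group it was lower in batch 2. The part of cell handling in the change was not tested.

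Class II antigen presentation genes rose in part. Of 6 tested 3 passed, H2-Aa, H2-Ab1 and H2-Eb1, with a median of 1.20. All 3 calls were lost at a mitochondrial limit of 5%, with 2 UMIs of each rule gene required and with a rule on Pf4 alone. H2-Aa stood at 19.9, 42.5 and 13.6 CPM in young and at 64.0, 71.5 and 71.0 CPM in aged libraries, without overlap (1.71 ± 0.32, edgeR adjusted p = 0.0103). Its call was lost without young 1 (1.58), young 3 (1.30) or aged 2 (1.63). That of H2-Eb1 (2.05 ± 0.40) was lost without young 1 (1.87), young 3 (1.80) or aged 2 (1.68), and that of H2-Ab1 (1.00 ± 0.22) without any of the young libraries, aged 2, aged 3 or CASIN 3 (0.81 to 1.14). Of the markers of mature lymphocytes, 2 of 10 were abundant enough to test and 0 passed, and macrophage markers summed to 0 to 7.47 CPM in every library.

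Slc7a11 and Trib3 were among the 11 genes that fell. Slc7a11, the cystine transporter, stood at 0, 0 and 163 CPM in young, at 0, 15.1 and 46.7 CPM in aged and at 0, 1.29 and 122 CPM in CASIN libraries. Trib3, a pseudokinase of the integrated stress response, stood at 1.66, 10.6 and 72.3, at 0, 11 and 11.2 and at 1.60, 3.88 and 62.4 CPM. Both were high in young 3 and CASIN 3, which share batch 2, and Slc7a11 was near 0 in all of batch 1. Trib3 fell by 2.78 on the log2 scale in aged members (SE 0.44, edgeR adjusted p = 0.0029), within both batches (−2.48 and −2.60). The call held in the 7 fits without 1 library that could test it (−2.85 to −2.70), and without young 3 or CASIN 3 its counts were too low for the test. Slc7a11 fell by 2.47 (SE 0.36, edgeR adjusted p = 0.00132), but without young 3 its change was 0.08.

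Of 22 cytokine receptor and signalling genes 2 passed, Cxcr4 and Csf2rb, both lower, while 13 of the 22 had a positive log2 change and the median was 0.16. Cxcr4, the receptor that holds cells in the marrow, stood at 13.3, 2.66 and 312 CPM in young and at 3.46, 57.8 and 116 CPM in aged libraries, and Csf2rb is the common beta chain of the GM-CSF and interleukin receptors. Cxcr4 fell by 1.76 (SE 0.30, edgeR adjusted p = 0.00492) and Csf2rb by 2.84 (SE 0.64, edgeR adjusted p = 0.0394). The call of Cxcr4 was lost without young 3 (−0.31) or aged 2 (−1.37), and also with DESeq2 and with the replicate block. Spi1, which encodes the myeloid factor PU.1, fell by 0.86 (SE 0.20, edgeR adjusted p = 0.0471) and Hist1h1e, a linker histone, by 0.82 (SE 0.18, edgeR adjusted p = 0.0324). The calls of Csf2rb, Spi1 and Hist1h1e were likewise lost when single libraries were left out. Csf2rb stood at −2.60 without young 1, −2.24 without aged 2 and −3.26 without aged 3, and was too low for the test without young 3 or CASIN 3. Spi1 ranged from −0.89 to −0.75 without young 1, young 2, aged 1, aged 2 or any CASIN library, and Hist1h1e from −0.81 to −0.63 without young 1, young 2, aged 1, aged 2 or CASIN 3.

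**Figure D5:**
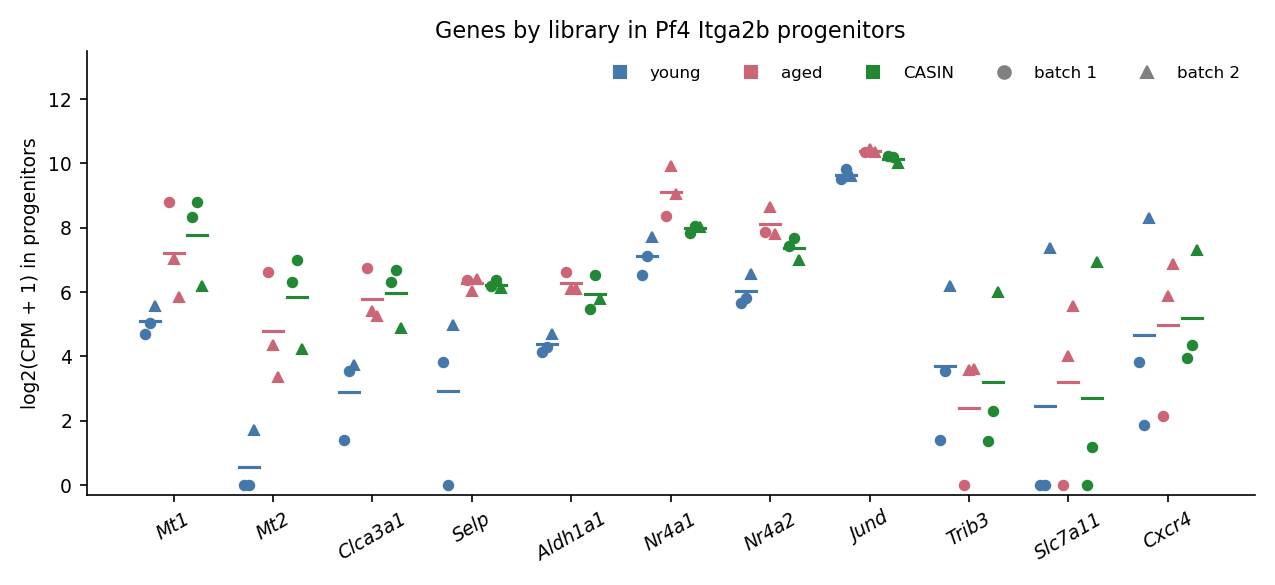
The vertical axis gives log2(CPM + 1) in members, each point is 1 of the 9 libraries, colours mark the group, shapes the batch and short lines the group mean. Mt1, Mt2, Selp, Clca3a1, Nr4a1 and Nr4a2 were higher in every aged library than in every young one, and Trib3 and Slc7a11 stood highest in young 3 and CASIN 3.

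The second comparison asks what CASIN changed in members of aged mice. The aged libraries are the same as in the comparison with young. Of 7810 genes 1 (0.0128%) passed, with 405 at an unadjusted p under 0.05 and 0 by DESeq2, and without aged 1 25 genes passed. The 5 genes with the lowest unadjusted p included Slc7a11 (2.11 ± 0.39, edgeR adjusted p = 0.0692), Trib3 (2.49 ± 0.47, edgeR adjusted p = 0.0692), Csrnp1 (−1.13 ± 0.24, edgeR adjusted p = 0.252) and Csf2rb (2.91 ± 0.65, edgeR adjusted p = 0.282), none of which passed. Each of them passed in at least 1 fit with a library left out (lowest edgeR adjusted p 0.00389, 0.0134, 0.0281 and 0.0381 in this order). Over these fits the change of Slc7a11 ranged from 1.46 (without aged 2) to 4.22 (without CASIN 3). Csrnp1, a nuclear protein induced by AXIN1, stood at 86.5, 122 and 84.1 CPM in aged and at 62.3, 46.6 and 33.6 CPM in CASIN libraries, without overlap. In aged against young members it rose by 1.46 ± 0.25 (edgeR adjusted p = 0.0049), a call lost without young 3 (1.32).

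Cdc42, the target of CASIN, did not pass in any comparison. It stood at 390, 390 and 294 CPM in young, at 398, 352 and 347 CPM in aged and at 350, 384 and 282 CPM in CASIN libraries. Its log2 change was 0.15 for aged against young (edgeR adjusted p = 0.832), −0.23 for CASIN against aged (edgeR adjusted p = 0.923) and −0.07 for CASIN against young (edgeR adjusted p = 0.961). CASIN acts on the activity of the protein, which transcripts do not measure.

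Of the 27 immediate early genes 0 passed between CASIN and aged members, and 2 of 27 had a positive change, with a median of −0.45 beside −0.00 over all genes. For Nr4a1, whose levels are given above, the change was −0.94 ± 0.23 (edgeR adjusted p = 0.459), and for Nr4a2 it was −0.68 (edgeR adjusted p = 0.912). Without CASIN 3 these were −0.51 and −0.22. Nr4a1 passed without aged 1 (−1.22, edgeR adjusted p = 0.0455) and with no filter on low counts (−0.94, edgeR adjusted p = 1.79e-05). Among heat shock and endoplasmic reticulum stress genes 0 of 16 passed, 1 had a positive change and the median was −0.41.

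In the latter list aged 2 and aged 3 stood apart. Hspa5, the chaperone BiP of the endoplasmic reticulum, stood at 490, 2106 and 3413 CPM in aged and at 423, 326 and 1579 CPM in CASIN libraries (−0.71, edgeR adjusted p = 0.642). Its change was −0.94 without aged 1 and −0.45 without aged 3. The lowest edgeR adjusted p over the fits without 1 library was 0.0381. The transcript Gm42418, whose reads include ribosomal RNA, stood at 784, 4445 and 6780 CPM in aged, at 920, 819 and 1810 CPM in CASIN and at 1057, 961 and 2069 CPM in young libraries, highest in the same 2 libraries. Its part in the result was not tested. The lists of megakaryocyte receptors (0 of 12 called, median −0.06), granule genes (0 of 25, 0.02), lineage factors (0 of 22, −0.03) and genes known from aged stem cells (0 of 27, 0.21, with 21 of 27 positive) held no call, where all genes had a median of −0.00 and an upper quartile of 0.21.

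The third comparison, of CASIN-treated aged mice with young mice, uses the same young libraries as the first. Of 7810 genes 20 (0.256%) were higher and 1 (0.0128%) was lower in CASIN members, with 494 at an unadjusted p under 0.05. Without the batch in the model 0 passed, by DESeq2 11, without young 1 4 and without young 3 55. Mt2 stood at 78.3, 127 and 17.6 CPM and Clca3a1 at 78.3, 102 and 28.8 CPM in CASIN libraries, all above the young. Mt2 rose by 5.62 ± 0.61 (edgeR adjusted p = 4.76e-05), Clca3a1 by 2.81 ± 0.42 (edgeR adjusted p = 0.00212) and Plscr2 by 2.55 ± 0.34 (edgeR adjusted p = 0.000776), calls that held whichever library was left out, with log2 changes of 4.59 to 9.03 for Mt2, 2.04 to 4.08 for Clca3a1 and 2.29 to 3.02 for Plscr2. The ratio of Mt2 rests on 158 UMIs against 2 and was 72.8 (exact 95% interval 19.8 to 606). Ramp2, a receptor activity modifying protein, and Gpr183, an oxysterol receptor, had no UMI in young members and were at least 15.7-fold and 16.6-fold higher in CASIN members. Gpr183 stood at 38.4, 38.8 and 0 CPM in the 3 CASIN libraries, and its call was lost without young 1 (5.88), that of Ramp2 without young 1 (6.42) or young 2 (6.72).

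Of the 27 genes known from aged stem cells 14 passed and rose (median 2.75). Of 27 immediate early genes 1 passed, Nr4a2 (median of the list 0.41), and of 6 class II genes 2, H2-Aa and H2-Eb1 (median 1.26). Nr4a2 lost its call without young 1 (1.11), young 2 (1.26), CASIN 1 (1.31) or CASIN 2 (1.11). H2-Aa lost it without young 1 (1.41), young 3 (1.22), CASIN 2 (1.31) or CASIN 3 (1.54), and H2-Eb1 without young 1 (2.06) or CASIN 2 (2.01). Of 19 calls followed through every omission 3 held in all, those of Mt2, Clca3a1 and Plscr2. Selp was the 1 receptor gene of 12 that passed (2.07 ± 0.37, edgeR adjusted p = 0.00865), a call lost without young 1 (1.89) or CASIN 2 (1.96). The gene that fell was Fcer1g, the signalling chain that platelets use with the collagen receptor and myeloid cells with Fc receptors. It stood at 105, 95.6 and 48.6 CPM in young and at 32.0, 36.2 and 28.8 CPM in CASIN libraries, without overlap, and fell by 1.29 (SE 0.27, edgeR adjusted p = 0.0401). Its call was lost without young 1 (−1.08), young 2 (−1.20), CASIN 1 (−1.20), CASIN 2 (−1.32) or CASIN 3 (−1.35).

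Most genes that changed with age in members were also called in cells with Procr and no Flt3. There 1248 of 12332 genes (10.1%) passed for aged against young. The 2 sets of calls had 38 genes in both, which were 80.9% of the calls in members and 3.04% of those in cells with Procr. Of the 21 calls for CASIN against young, 20 were shared, or 95.2% and 0.979% of the 2 sets, where 2042 of the 12332 genes (16.6%) passed in cells with Procr. In double-negative cells 26 of 10777 genes (0.241%) passed for aged against young and 11 (0.102%) for CASIN against young. Of these 12 were shared with the members for age (25.5% of the calls in members and 46.2% of the others) and 3 for CASIN against young (14.3% and 27.3%).

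Whether an effect differed between members and another class was tested by an interaction term over the same libraries, with the library as a block. Against double-negative cells the effect of age differed for 4 of 9095 genes (0.044%). The log2 change was higher in members than in double-negative cells for the immunoglobulin genes Igkc and Ighm (differences of 1.47 and 1.77), and lower for Jun, an AP-1 subunit, (−0.80) and F630028O10Rik (−5.02). Without young 3 these 4 calls were lost, and the difference for Ighm changed sign (−0.32). The call of F630028O10Rik was also lost without aged 2 (−3.91), and that of Jun without young 2 (−0.79), aged 2 (−0.73) or aged 3 (−0.79). For CASIN against aged 0 genes passed, with 342 at an unadjusted p under 0.05. In members Igkc stood at 1.66, 0 and 68.9 CPM in young and at 8.65, 182 and 389 CPM in aged libraries, where double-negative cells held 2454, 2702 and 43955 CPM and 4844, 54363 and 66357 CPM. The members' level was thus highest where the other cells held most, and the part of free RNA was not tested.

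Against cells with Procr the effect of age differed for 72 of 11048 genes (0.652%), of which 55 were higher and 17 lower in members, in a comparison added after the data were seen. Of 43 S phase genes tested 11 were higher and of 54 G2/M genes 5, beside 55 of all 11048 genes. The fit against cells with Procr was not repeated with a library left out or with other settings. Hells, a helicase of replicating chromatin, stood at 141, 69.0 and 50.9 CPM in young and at 116, 63.3 and 85.9 CPM in aged members, and in cells with Procr at 60.6, 40.1 and 39.3 and at 17.5, 18.5 and 24.2 CPM. It thus lay in the same range in members of both ages and was lower in every aged library among cells with Procr (difference 1.48 ± 0.22, edgeR adjusted p = 0.000177). Tk1, thymidine kinase (1.96 ± 0.31), and Stmn1, which destabilises microtubules (0.63 ± 0.09), differed in the same direction. Among those lower in members was Nupr1, a stress-induced regulator that is high in stem cells (−1.77 ± 0.28). It stood at 239, 42.6 and 24.3 CPM in aged members and at 462, 236 and 173 CPM in aged cells with Procr, beside 23.9 to 62.2 and 18.8 to 74.8 CPM in young.

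For CASIN against aged the difference passed for 2 genes (0.0181%). Slc7a11 (2.51 ± 0.33, edgeR adjusted p = 3.09e-05) and Csf2rb (3.28 ± 0.61, edgeR adjusted p = 0.0173) had a higher log2 change in members than in cells with Procr. Slc7a11 was near 0 in batch 1 in both classes. In batch 2 it stood at 15.1 and 46.7 CPM in aged and 122 CPM in CASIN members, and at 75, 115 and 71.0 CPM in the same libraries' cells with Procr.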

How the data were processed

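The 9 libraries were sequenced as 3' v3 single-cell RNA, together with surface antibody tags that are not analysed here. Per the submitters' processing notes the authors used Cell Ranger 3.1.0 and build mm10, and the deposited values are raw UMI counts per gene and barcode, 31053 genes in all. No sample column was left unused. Barcodes with 1000 to 40000 UMIs, at most 6000 genes and at most 10% mitochondrial UMIs were kept (15975 of 32387). Members were then taken by the rule given in the report. The members and gene lists were chosen with earlier results of these data known. Scrublet (scanpy 1.11.5) marked 92 cells (0.576%) as doublets, 0 of them members, and they were left in.

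Counts were summed over the members of each library and tested with edgeR 4.0.16 (quasi-likelihood test, TMM, filterByExpr, model of group and batch over all 9 libraries, adjusted p below 0.05 in R 4.3.3 with limma 3.58.1). The 4 rule genes were left out of the calls. Each SE is the absolute log2 change divided by the square root of the F statistic of the test. It is therefore approximate, above all for genes with few UMIs. Named genes were up to 10 higher and 10 lower per comparison with the largest change among calls of at least 10 CPM with the same direction in both batches, any gene of the lists and Cdc42, and where fewer than 3 passed also the 5 with the lowest p. F630028O10Rik and the other interaction genes were taken by adjusted p, up to 10. Gm42418 was chosen after its values were seen. Some genes that these rules name, among them the 1 call for CASIN against aged, are not reported here. Ratios to double-negative cells used a pseudocount of 1 CPM. Shares and summed levels were compared by exact permutation tests (Python 3.11.15, scipy 1.17.1, numpy 2.4.6, pandas 2.3.3, figures by matplotlib 3.10.9). Thinning drew 4000 UMIs a cell, 20 times for shares.

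On simulated counts for aged against young with known changes, genes changed by 1 on the log2 scale were recovered at 48.8% and by 2 at 90.8%, and 0.8% of calls were false. For CASIN against aged the recovery was 57.8% and 83.9%. The simulation gave all genes 1 common dispersion (0.0156) and all libraries the same mean profile, without a difference between batches. Its recovery and share of false calls hold for that setting and may be better than in the real counts. Other settings numbered 38, DESeq2 1.42.0 among them, and 2 more were added after the data were seen.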

Additional observations from a re-analysis of the deposited data

Results flagged for a closer look

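The difference in the share of members between groups took opposite directions in the 2 batches, a difference between batches that was not tested. For aged minus young it was 1.49 points (percentage points) within batch 1 but −1.94 within batch 2, CASIN minus aged was 0.506 and −1.12, and CASIN minus young was 2.00 and −3.07. CASIN minus aged had 1 direction in both batches at a mitochondrial limit of 5% (0.239 and 0.226) and with Itga2b alone (−0.357 and −2.12), where the other differences kept opposite directions. Batch 1 holds 1 aged library and batch 2 holds 1 young and 1 CASIN library, and the batches also differ in sex-linked transcripts and in mitochondrial share, as described in the report, and the part of these was not tested.

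The effect of age differed between members and double-negative cells, by the interaction test of edgeR, for 4 genes. Igkc, an immunoglobulin light chain, differed by 1.47 ± 0.21 on the log2 scale (adjusted p = 0.00127) and Ighm, the heavy chain, by 1.77 ± 0.27 (adjusted p = 0.0023). Ighm stood at 0, 5.31 and 31.6 CPM in young and at 0, 89.4 and 140 CPM in aged members. In double-negative cells it stood at 254, 310 and 16467 CPM and at 197, 13956 and 16369 CPM, so that the members were low where those cells were low. Without young 3 the differences were 2.43 for Igkc and −0.32 for Ighm, and neither passed. F630028O10Rik differed by −5.02 ± 0.78 (adjusted p = 0.0023), at 1.66, 5.31 and 19.2 CPM in young and 0, 0 and 3.74 CPM in aged members, and did not pass without young 3 (−3.86) or aged 2 (−3.91). Jun differed by −0.80 ± 0.14 (adjusted p = 0.016). It stood at 689, 632 and 210 CPM in young and 744, 473 and 398 CPM in aged members, and did not pass without young 2 (−0.79), young 3 (−0.58), aged 2 (−0.73) or aged 3 (−0.79).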

How the results depend on the processing

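The counts of called genes depended on most settings, whereas the directions held for most named genes. Of 1529 values of single genes under alternative settings, 1138 kept their direction and side of the threshold, 359 kept their direction but no longer passed, 21 newly passed and 11 changed sign. For aged against young 47 genes passed, 19 with DESeq2, 147 with no filter on low counts, 0 with no batch term, 22 with the 2 groups alone, 25 at a mitochondrial limit of 5%, 17 with 2 UMIs of each gene required, 127 with Itga2b alone and 76 with Pf4 alone, 9 after thinning, where the rule was applied again to the thinned cells, and 24 without members holding a proliferation UMI. For CASIN against aged (1 gene) these were 0, 24, 0 and 0 for the first 4 settings, 2 with 2 UMIs, 4 with Itga2b alone, 3 with Pf4 alone and 0 after thinning. For CASIN against young (21 genes) they were 11, 98, 0 and 38, then 6, 97, 68 and 1.

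Libraries of the same replicate number correlated at −0.44 to 0.12 once the group and the batch were taken out. With so few libraries that fit ties their remaining values to each other, so that these correlations cannot decide whether the numbers pair the libraries. With the replicate number as a block 20 genes passed for aged against young, 0 for CASIN against aged and 18 for CASIN against young. Leaving out 1 library gave 18 (without aged 2) to 61 (without aged 1) genes for aged against young, 0 to 25 for CASIN against aged (25 without aged 1) and 4 (without young 1) to 55 (without young 3) for CASIN against young. The interaction with double-negative cells gave 19 and 15 genes with no filter (aged against young, CASIN against aged), 0 for aged against young after thinning, 0 to 10 and 0 to 3 with 1 library left out, and 72 and 2 against cells with Procr. At least 2-fold higher than in double-negative cells in all libraries were 5 genes, 0 with a pseudocount of 10 CPM, 0 after thinning, 39 with 2 UMIs and 5 to 17 with 1 library left out. For lower genes (34) the counts under such settings included 13 and 95, and with 1 library left out they were 35 to 46.

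The share of CASIN minus aged changed sign at mitochondrial limits of 5% (0.822) and 20% (0.320) and with Pf4 alone (0.848). With 1 library left out it ranged from −0.350 to 0.468, aged minus young from −0.292 to 1.53 and CASIN minus young from −0.348 to 1.48. The S phase level of aged minus young was 0.161 at the 5% limit and 0.0802 with 2 UMIs, and that of CASIN minus aged 0.0571 after thinning. After thinning the G2/M level was 0.275 for aged and 0.530 for CASIN minus young. With 1 library left out S levels ranged from −0.120 to 0.0493 (aged minus young), −0.203 to 0.0141 (CASIN minus aged) and −0.261 to −0.0202 (CASIN minus young), and G2/M levels from −0.411 to 0.0793, −0.230 to 0.261 and −0.310 to −0.0641. Single genes that changed sign were Cdc42 (−0.0050 for aged against young with no batch term, 0.14 for CASIN against aged and 0.15 for CASIN against young without members holding a proliferation UMI, 0.094 with Pf4 alone, 0.029 thinned), Spi1 (0.30) after thinning, Slc7a11 (0.075 without young 3, −3.38 to 0.075 over all such omissions), the difference for Ighm (−0.32 without young 3, −0.32 to 1.94 over all), the difference for Jun (0.42) after thinning, and those for Ighm (−1.62) and Igkc (−2.87) against cells with Procr. The causes were not tested.

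With 27 to 62 members a library, changes of 1 on the log2 scale were recovered at 48.8% in simulated counts for aged against young. Those counts held no difference between batches. Genes that did not pass are thus not shown to be unchanged.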

Other observations

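Counts for further lists of genes between the groups of members are given here. Of 21 stem cell genes tested for aged against young 2 passed and rose, Sult1a1 and Gda, beside 0.461% of all genes, with a median log2 change of 0.31. Both calls were lost without aged 1 (0.72 and 1.57), and for CASIN against aged 0 passed, with a median of 0.14. Of 9 interferon response genes 0 passed in either comparison (medians 0.53 and −0.12), and likewise of 42 S phase genes (−0.03 and −0.08) and 50 G2/M genes (−0.21 and 0.17). Of 8 erythroid genes 0 passed (0.29 and 0.07). Few genes of other lineages were abundant enough to test, 5 of granulocytes and monocytes (0.52 and −0.41), 4 of lymphoid cells (0.22 and 0.12), 2 of mature lymphocytes, 2 of stromal and endothelial cells and 1 of mast cells, and 0 of them passed. Macrophage markers were too low for any test.

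Barcodes above the mitochondrial limit held cells that met the gene rule as well. Between 10% and 20% mitochondrial UMIs these were 35 of 1668 barcodes in aged 2, 13 of 1002 in young 3, 16 of 2412 in aged 3 and 11 of 1655 in CASIN 3, and 1 to 3 in each library of batch 1.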
